A study of Saccharomyces cerevisiae with 6 samples.

Results

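Peroxisome and fatty acid oxidation genes were followed across 3 groups of the budding yeast Saccharomyces cerevisiae. They were chosen by name from the annotated open reading frames (ORFs): every PEX gene, and POX1, FOX2, POT1, CTA1, ECI1, DCI1, SPS19, IDP3, FAA2, PXA1, PXA2, OAF1 and PIP2. This gave 40 of 5791 ORFs on 15 chromosomes, of which 27 encode peroxisome biogenesis factors, 11 encode enzymes and transporters of fatty acid oxidation and 2 encode their transcription factors. All 40 passed the filter on low values, which kept 5645 ORFs. PEX9 and PEX35 were not analysed here, since no ORF carried either symbol.

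Total RNA was depleted of rRNA, sequenced with strand information and compared between wild-type cells in glutamine-containing medium, wild-type cells in proline-containing medium and dal80Δ cells in proline-containing medium, with 2 cultures per group. The wild type is strain 25T0b (MATα ura3 his3 trp1) and the mutant is FV080 (MATa ura3 his3 trp1, with dal80 replaced by kanMX), and all cultures grew in minimal medium with glucose to mid-log phase. Glutamine is a preferred nitrogen source under which nitrogen catabolite repression (NCR) is on, proline is a poor source under which it is relieved, and Dal80 is a GATA-family factor made when NCR is relieved. DAL80 had 16 and 17.7 scaled reads in glutamine, 3537 and 2729 in proline-grown wild type and 6.15 and 2.75 in dal80Δ.

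Libraries held 12304015 to 19968312 reads on ORFs. Values below are scaled reads (reads multiplied by the factor deposited for each library) or densities (scaled reads per nucleotide of the ORF, tag/nt), and only densities compare levels between genes. A call required a limma p of 0.01 or less after Benjamini-Hochberg adjustment together with a 2-fold or larger change, on log2(scaled reads + 1). On that scale the change of a gene with few reads depends on the added 1 and can rest on 1 library. Genes higher in proline than in glutamine are termed NCR-sensitive and genes lower revNCR-sensitive, while genes higher in dal80Δ than in wild type are Dal80-repressed and genes lower Dal80-activated. Both comparisons share the wild-type proline libraries, so their values are given side by side and no relation between them was computed.

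Mating genes moved with both comparisons. Besides DAL80, the strains also differ in mating type, so in dal80Δ these differences cannot be told apart. All 4 α-specific genes examined (MF(ALPHA)1, MF(ALPHA)2, STE3 and SAG1) were lower in dal80Δ, with summed levels of 56143 to 77866 scaled reads in the wild-type libraries and 677 and 720 in dal80Δ. All 7 a-specific genes (MFA1, MFA2, STE2, STE6, BAR1, AGA2 and ASG7) were higher in proline-grown wild type than in glutamine, with summed levels of 193 and 242 in glutamine, 2511 and 2197 in proline-grown wild type and 6135 and 6984 in dal80Δ. In dal80Δ only MFA1, MFA2 and STE6 of the 7 were called higher, and STE2 (log2 fold change 0.95), BAR1 (0.30), ASG7 (-0.88) and AGA2 (-1.11) were not called. The a1 gene annotated as HMRA1 was at 0 reads in all 4 wild-type libraries and at 343 and 498 scaled reads in dal80Δ. The part of mating type in the results on the 40 genes was not tested.

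Peroxisomes of budding yeast are the only site of fatty acid β-oxidation. Acyl chains enter through an ABC transporter or are activated inside, are shortened by an acyl-CoA oxidase, a multifunctional enzyme and a thiolase, and the hydrogen peroxide made by the oxidase is removed by catalase. Peroxins (PEX genes) insert the membrane proteins, import the folded matrix enzymes and set the number and size of the organelle. In cells grown on oleate, the zinc cluster factors Oaf1 and Pip2 bind oleate response elements as a heterodimer and induce many of these genes, and glucose, the carbon source here, is known to repress them.

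The promoters of the oxidation genes are shown first because most of them hold a match to the oleate response element, unlike most peroxins. The form searched was CGGNNNTNA, a spacer of 9 to 12 bases and CCG, on both strands of the 500 bases before the ORF. It was found for 10 of 11 oxidation genes (all but PXA1), for 4 of 27 biogenesis genes (PEX5, PEX6, PEX11 and PEX13) and for PIP2. These 15 of 40 genes (37.5%) compare with 109 of 5770 ORFs that had a full window (1.89%). Since Oaf1 and Pip2 are known to act on many of these genes through this element, the shares describe the promoters and are not a test. The spacer was set to 9 to 12 bases after a first search with 7 to 10 bases had given 1 of 11 oxidation genes. Matches lay between 312 and 113 bases before the ORF, and 3 of the 17 overlapped a GATAA. Upstream of the annotated transcript start lay 14 of the 17, while those of POT1, DCI1 and PEX6 lay within the annotated transcript. Capitals below mark the fixed letters of the element, and the sites were read from the RefSeq copy of build R64. Each site is written along a strand that carries the match. Some sites, such as that of POT1, match on both strands and are written along the strand of the gene.
POX1 distal (chr7:107846-107868, minus strand): CGGagtTtAatcaactaataCCG
POX1 proximal (chr7:107883-107905, plus strand): CGGtcaTtAgcggctaatagCCG
FOX2 distal (chr11:457337-457358, plus strand): CGGactTaAaactaggcttCCG
FOX2 proximal (chr11:457305-457325, plus strand): CGGcgtTaAcaaatttccCCG
POT1 (chr9:41610-41632, minus strand): CGGggaTaAtagtattaacaCCG
CTA1 (chr4:969866-969889, minus strand): CGGcttTaAcaaatataaactCCG
ECI1 (chr12:707191-707213, minus strand): CGGgcaTaAgaaatattattCCG
DCI1 (chr15:675286-675309, minus strand): CGGctgTaAgcgcgctaaactCCG
SPS19 (chr14:259412-259435, plus strand): CGGcgtTaAgtatatcaaactCCG
IDP3 (chr14:614509-614531, minus strand): CGGcatTaAgcatgctaaatCCG
FAA2 (chr5:184355-184377, minus strand): CGGcgtTaAagactgacggtCCG
PXA2 (chr11:89035-89058, minus strand): CGGcgtTaAttacaactatcaCCG
PIP2 (chr15:1023348-1023368, minus strand): CGGaacTaAatataatctCCG
PEX11 (chr15:48756-48778, minus strand): CGGcatTtAtctcggagaacCCG

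POX1 and FOX2, which encode the first enzymes of the β-oxidation cycle, were the only members with more than 1 match. GATA motifs, which NCR factors read, did not set the 40 genes apart in these windows. GATAAG was found for 11 of 40 (27.5%) against 22.7% of all windows, GATAA for 31 (77.5%) against 78.2%, and GATTAG for 5 (12.5%) against 17.0%. A longer stretch of 250 bases is shown for 3 promoters whose genes had their highest mean level in dal80Δ, each ending before the annotated transcript start, with capitals marking the oleate response element and any GATAA on either strand. A match is a description of the letters and not of a bound site.
POX1 (chr7:107725-107974, plus strand): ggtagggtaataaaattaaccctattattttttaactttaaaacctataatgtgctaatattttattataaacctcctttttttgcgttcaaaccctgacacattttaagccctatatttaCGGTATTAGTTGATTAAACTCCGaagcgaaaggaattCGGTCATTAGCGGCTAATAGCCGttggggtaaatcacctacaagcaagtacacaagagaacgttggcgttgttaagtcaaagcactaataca
FAA2 (chr5:184224-184473, plus strand): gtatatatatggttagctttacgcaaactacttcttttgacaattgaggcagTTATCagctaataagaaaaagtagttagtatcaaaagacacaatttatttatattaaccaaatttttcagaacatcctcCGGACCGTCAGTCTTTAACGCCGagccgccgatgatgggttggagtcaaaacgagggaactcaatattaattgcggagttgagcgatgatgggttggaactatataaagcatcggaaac
PEX11 (chr15:48680-48929, minus strand): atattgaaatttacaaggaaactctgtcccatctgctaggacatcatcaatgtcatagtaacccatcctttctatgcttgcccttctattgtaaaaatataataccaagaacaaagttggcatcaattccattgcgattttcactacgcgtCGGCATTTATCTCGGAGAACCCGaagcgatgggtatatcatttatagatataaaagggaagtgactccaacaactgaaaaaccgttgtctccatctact

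**Figure D1:**
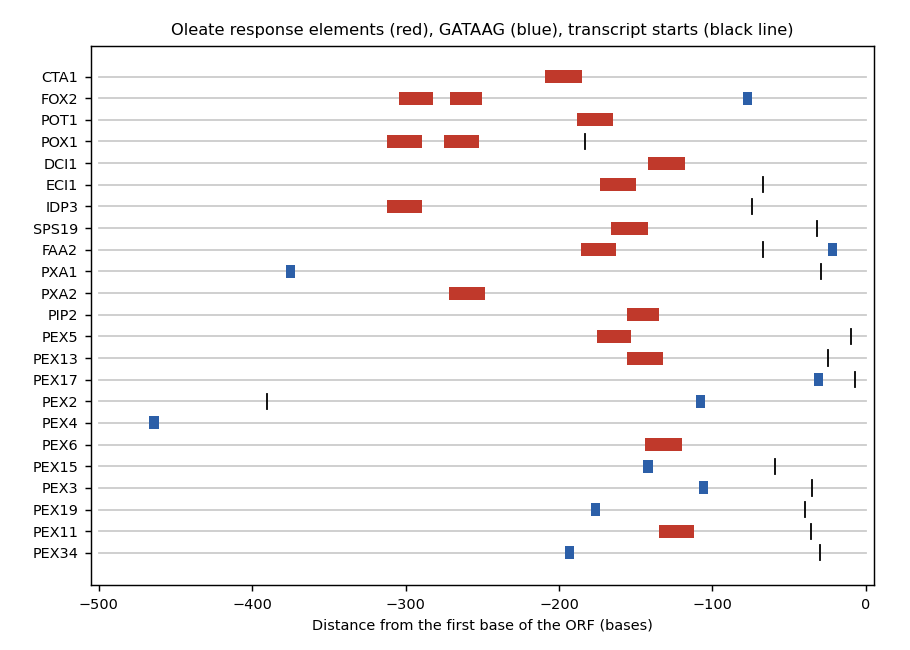
Positions of oleate response elements (red) and GATAAG (blue) in the 500 bases before the ORF, in bases from the first base of the ORF, for 23 members that hold either, with annotated transcript starts within the window as black lines. The oxidation genes at the top carry the red element in 10 of 11 cases, and most peroxins shown carry only the blue motif.

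Oxidation genes were expressed at lower median density than biogenesis genes, and both medians lay below that of all tested ORFs in every library. In bulk RNA of whole cultures, fewer cells that express a gene and less RNA per cell cannot be told apart. The median density of the 11 oxidation genes was 0.0414 and 0.0524 tag/nt in the glutamine libraries, 0.0842 and 0.0962 in proline-grown wild type and 0.0971 and 0.0931 in dal80Δ. The median over all tested ORFs was 0.348 to 0.377 tag/nt per library, and that of the 27 biogenesis genes was 0.255 to 0.312. The 2 densest oxidation genes, FAA2 (mean over 6 libraries of 0.193 tag/nt) and ECI1 (0.166), lay below the median ORF in every library, while PEX11 (2.15 tag/nt) and PEX2 (1.04) lay above it in every library. The lowest densities were those of PEX18 (mean 0.0208) and POT1 (mean 0.0225).

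**Figure D2:**
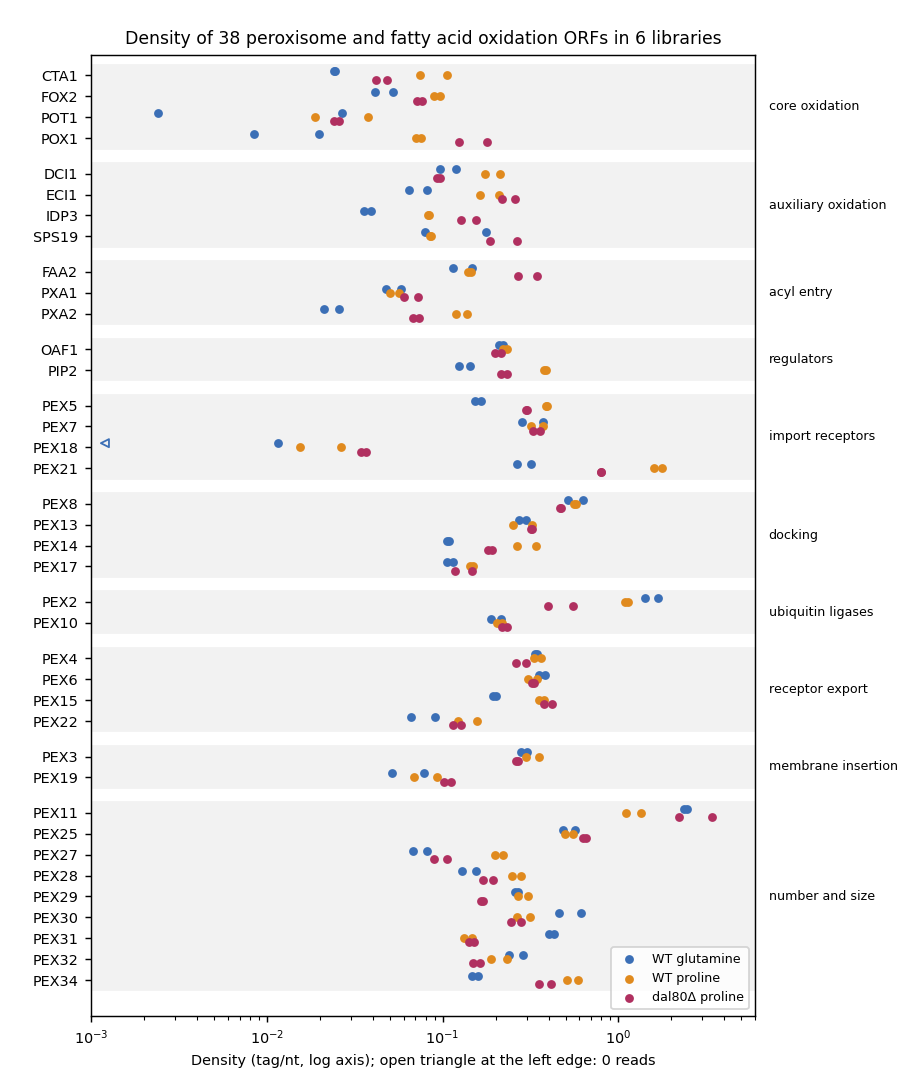
Density of 38 of the 40 ORFs (tag/nt, log axis) in the 6 libraries, 1 point per library, coloured by group and grouped by role, with an open triangle at the left edge for 0 reads. Oxidation genes sit mostly below 0.2 tag/nt, and PEX11 and PEX2 stand highest among the peroxins over the 6 libraries.

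Proline raised a part of the oxidation pathway in wild-type cells. Of 11 oxidation genes 5 were NCR-sensitive (POX1, PXA2, CTA1, ECI1 and IDP3) and none was revNCR-sensitive, with a median log2 fold change of 1.15 against 0.04 over all tested ORFs. Of 27 biogenesis genes 5 were NCR-sensitive (PEX21, PEX34, PEX27, PEX14 and PEX5) and 1 was revNCR-sensitive (PEX31), with a median of 0.12. Together with PIP2 this made 11 higher (27.5%) and 1 lower (2.50%) of 40, beside 13.0% of all tested ORFs that were higher and 15.6% that were lower.

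Fewer of them differed between dal80Δ and proline-grown wild type, and in both directions. FAA2 and PEX11 were Dal80-repressed, and PEX2, PEX27, PEX21 and DCI1 were Dal80-activated. These were 2 higher (5%) and 4 lower (10%) of 40, beside 3.60% and 4.43% of all tested ORFs. The median log2 fold change in dal80Δ against wild type was 0.31 for oxidation genes, -0.16 for biogenesis genes and 0.05 for all tested ORFs. Each of these 6 calls was lost in 3 or 4 of the 6 fits that left out 1 library, as given with each gene. In neither comparison were 24 of the 40 genes called.

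**Figure D3:**
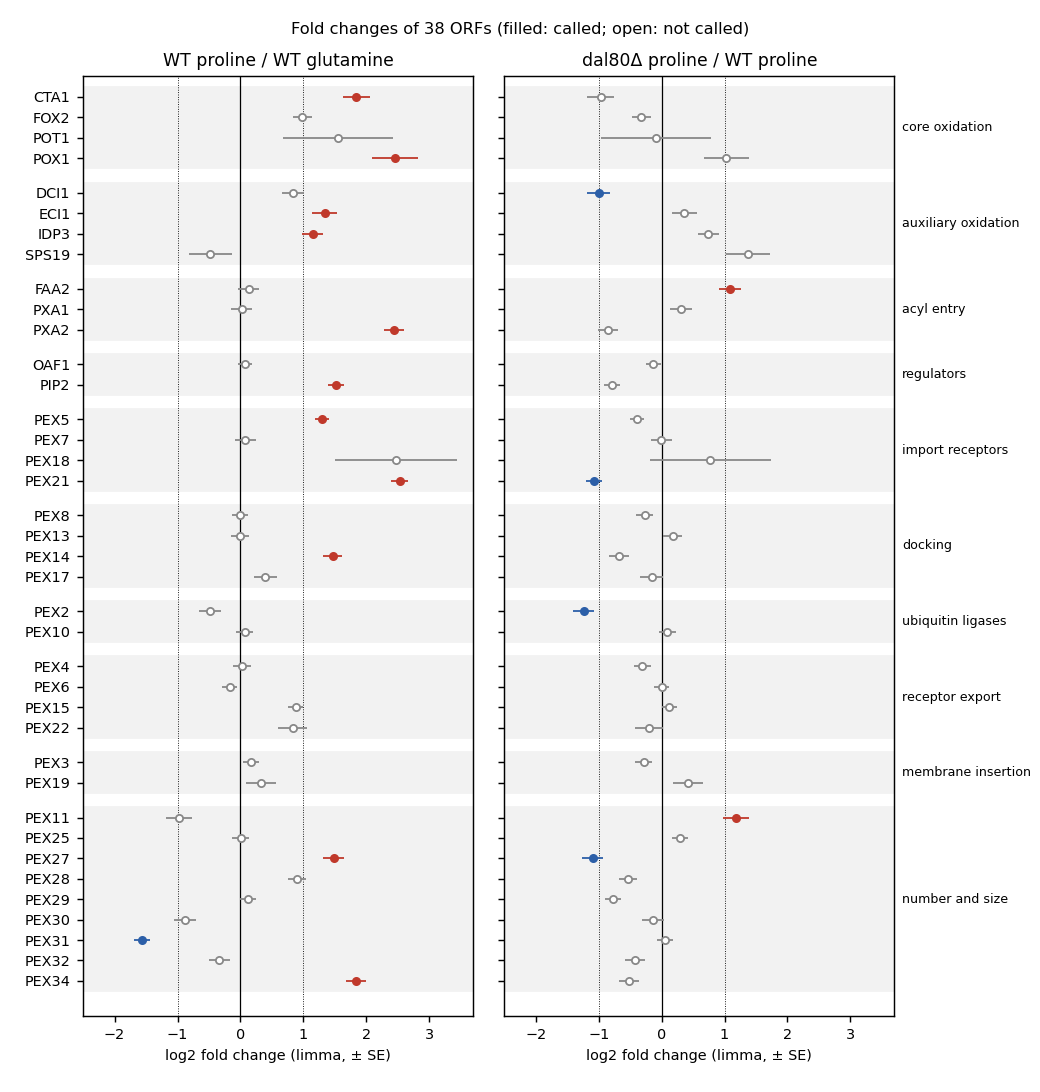
Log2 fold changes (limma, ± SE, 2 libraries per group) of 38 of the 40 ORFs for proline-grown wild type against glutamine (left) and dal80Δ against proline-grown wild type (right), filled where called and dotted at a 2-fold change. The NCR-sensitive genes reach 2.53 (PEX21), 2.46 (POX1) and 2.44 (PXA2), and the right panel has 2 genes called higher and 4 called lower.

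Among the enzymes of the cycle itself, POX1 (YGL205W, chromosome 7 from 108158 to 110404), the acyl-CoA oxidase that opens each round, changed most. It had 19 and 44.2 scaled reads in glutamine, 158 and 170 in proline-grown wild type and 279 and 404 in dal80Δ. The groups were ordered without overlap, with glutamine lowest and dal80Δ highest. The log2 fold change was 2.46 in proline (SE 0.36, limma adjusted p = 0.00076) and 1.03 in dal80Δ (SE 0.36, limma adjusted p = 0.067), and the latter was called without either glutamine library, in a fit of the 4 proline libraries alone and with DESeq2. Leaving out 1 library at a time gave 1.87 (without the first glutamine library) to 3.04 (without the second) in proline, always called, and 0.76 to 1.29 in dal80Δ, with a highest limma adjusted p of 0.32. Its promoter holds a pair of oleate response elements, as does that of FOX2.

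FOX2 encodes the multifunctional enzyme that follows, with hydratase and dehydrogenase activities. It had 112 and 142 scaled reads in glutamine, 241 and 260 in proline-grown wild type and 194 and 206 in dal80Δ. Both proline groups lay above the glutamine libraries, and FOX2 fell just short of the fold threshold in proline (log2 fold change 0.99, SE 0.16, limma adjusted p = 0.0010). It gained a call with edgeR, with TMM scaling, with libraries scaled by their totals of ORF reads, and without the second glutamine or the first wild-type proline library. In dal80Δ it had a log2 change of -0.32 (limma adjusted p = 0.15).

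POT1, the ketoacyl-CoA thiolase gene that closes the cycle, had 3 and 33.4 scaled reads in glutamine, 47.3 and 23.4 in proline-grown wild type and 32.1 and 30.3 in dal80Δ. The second glutamine library lay within the range of the proline libraries, and only the first stood apart. The log2 fold change of 1.55 in proline (SE 0.88, limma adjusted p = 0.15) was 3.10 without the second glutamine library, which made it a call, and -0.0032 without the first.

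CTA1, the peroxisomal catalase gene, had 38 and 37.4 scaled reads in glutamine, 114 and 165 in proline-grown wild type and 64.9 and 74.9 in dal80Δ. All 3 groups were separate, with dal80Δ between the wild-type groups. CTA1 rose in proline by 1.84 on the log2 scale (SE 0.22, limma adjusted p = 0.00027). In dal80Δ its log2 fold change was -0.97 (SE 0.22, limma adjusted p = 0.014), called lower with edgeR and with libraries scaled by their totals of ORF reads.

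The auxiliary enzymes, which handle unsaturated chains and supply NADPH in the matrix, did not move as a block. ECI1, an enoyl-CoA isomerase gene, had 54 and 68.8 scaled reads in glutamine, 176 and 138 in proline-grown wild type and 183 and 218 in dal80Δ. It was higher in proline (log2 fold change 1.34, SE 0.20, limma adjusted p = 0.00076) and had a value of 0.36 in dal80Δ (limma adjusted p = 0.20). Its paralog DCI1 had 97 and 78.7, then 173 and 141, and 79.2 and 76.0 in the same order. DCI1 was thus highest in proline-grown wild type, while the dal80Δ libraries lay at the level of the glutamine libraries. The log2 fold change of DCI1 was 0.83 in proline (limma adjusted p = 0.0047), below the fold threshold, and -1.004 in dal80Δ (SE 0.18, limma adjusted p = 0.0062). The dal80Δ call was lost without any 1 of the 4 proline libraries, with values of -1.15 to -0.86 over all 6 fits and a highest limma adjusted p of 0.054, and also with a pseudocount of 8 or without the filter on low values.

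SPS19, a dienoyl-CoA reductase gene, had 70 and 155 scaled reads in glutamine, 74 and 75.4 in proline-grown wild type and 163 and 232 in dal80Δ. Its dal80Δ libraries lay above the other 4 libraries, and the glutamine libraries lay on either side of proline-grown wild type. Its log2 fold change was -0.48 in proline (limma adjusted p = 0.26), or -1.05 and called without the first glutamine library. In dal80Δ the value was 1.37 (SE 0.35, limma adjusted p = 0.024), called with DESeq2, in the fit of 4 libraries and without either glutamine library. IDP3, the peroxisomal isocitrate dehydrogenase gene that yields NADPH for these reductases, had 45 and 49.2, then 106 and 105, and 161 and 195 scaled reads. Its groups were ordered as those of POX1. IDP3 rose in proline by 1.15 (SE 0.17, limma adjusted p = 0.00069), and its log2 fold change of 0.74 in dal80Δ was not called (limma adjusted p = 0.014).

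**Figure D4:**
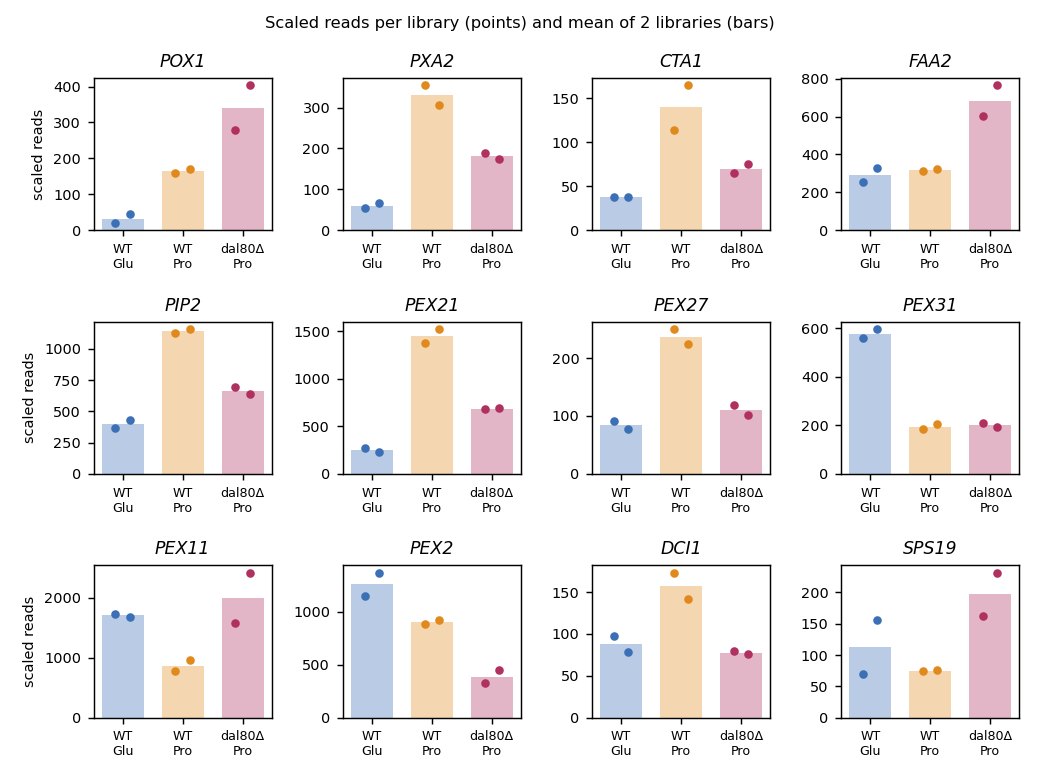
Scaled reads of 12 genes in each library (points) and the mean of the 2 libraries of a group (bars), with the vertical axis starting at 0. POX1 was highest in dal80Δ, PXA2, CTA1, PIP2, PEX21 and PEX27 were highest in proline-grown wild type, PEX31 and PEX2 were highest in glutamine, and PEX11 was lowest in proline-grown wild type.

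Entry of fatty acids takes 2 routes in yeast, and each held a called gene. Long chains cross the membrane through the ABC transporter formed by Pxa1 and Pxa2, and medium chains are activated inside by the acyl-CoA synthetase Faa2. PXA2 had 54 and 65.9 scaled reads in glutamine, 354 and 305 in proline-grown wild type and 189 and 174 in dal80Δ, with no overlap between groups. It rose in proline by 2.44 (SE 0.16, limma adjusted p = 2.9e-05), while its log2 fold change of -0.86 in dal80Δ stayed short of the fold threshold (limma adjusted p = 0.0075). PXA1 had no match to the form of the oleate response element searched. It had 124 and 152, then 132 and 147, and 157 and 189 scaled reads. The glutamine and wild-type proline libraries of PXA1 overlapped, with a log2 change of 0.02 in proline and 0.31 in dal80Δ (limma adjusted p = 0.93 and 0.20). The density ratio of PXA2 to PXA1, the transporter's subunits, was therefore 0.444 and 0.441 in glutamine, 2.75 and 2.12 in proline-grown wild type and 1.23 and 0.937 in dal80Δ.

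FAA2 had 256 and 330 scaled reads in glutamine, 313 and 324 in proline-grown wild type and 601 and 765 in dal80Δ. The wild-type groups overlapped, and both dal80Δ libraries lay above all 4 wild-type libraries. FAA2 did not pass the test in proline (log2 fold change 0.13, limma adjusted p = 0.53) and was higher in dal80Δ (1.09, SE 0.17, limma adjusted p = 0.0037). That call was lost without any 1 of the 4 proline libraries (values of 0.92 to 1.26 over all 6 fits, highest limma adjusted p = 0.040), with libraries scaled by their totals of ORF reads (0.83) and without the filter on low values. Of the 40 ORFs only FAA2 overlaps another ORF, BUD25, over 160 bases on the opposite strand, and the libraries were strand-specific.

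The 2 transcription factor genes differed. OAF1, which encodes the subunit that binds oleate, had 697 and 660 scaled reads in glutamine, 730 and 696 in proline-grown wild type and 679 and 622 in dal80Δ. All of its log2 fold changes were small (0.07 in proline, limma adjusted p = 0.60, and -0.13 in dal80Δ, limma adjusted p = 0.41). PIP2, which encodes the partner and holds an oleate response element of its own, had 370 and 429, then 1132 and 1161, and 692 and 638 scaled reads. It was higher in proline (1.52, SE 0.13, limma adjusted p = 6.3e-05), with dal80Δ between the wild-type groups (-0.78, SE 0.13, limma adjusted p = 0.0038, short of the fold threshold). The density ratio of PIP2 to OAF1 was 0.558 and 0.683 in glutamine, 1.63 and 1.75 in proline-grown wild type and 1.07 and 1.08 in dal80Δ.

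**Figure D5:**
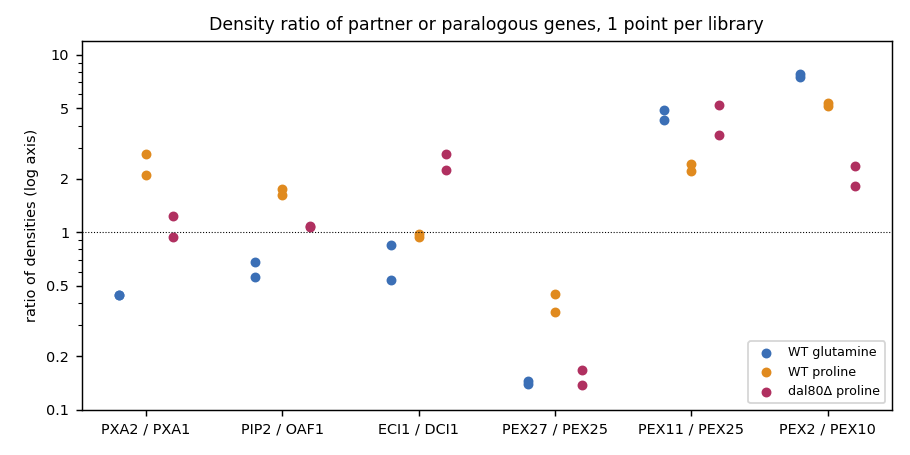
Ratio of densities (log axis, 1 point per library) for 6 pairs of genes whose products work together or are paralogs, coloured by group, with a dotted line at equal density. PXA2 to PXA1 and PIP2 to OAF1 lay below 1 in glutamine and above 1 in proline-grown wild type, and PEX2 to PEX10 was lowest in dal80Δ. Differences between the genes of a pair were not tested.

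Among biogenesis genes, the import receptors held the largest rise. Pex5 carries most matrix enzymes into the organelle, and Pex7 carries a few, such as the thiolase, together with a co-receptor, Pex18 or Pex21. PEX21 (YGR239C, chromosome 7 from 969187 to 970053) had 275 and 228 scaled reads in glutamine, 1383 and 1527 in proline-grown wild type and 686 and 691 in dal80Δ. All groups were separate, with proline-grown wild type highest and dal80Δ in between. PEX21 was NCR-sensitive (log2 fold change 2.53, SE 0.13, limma adjusted p = 1.2e-05) and Dal80-activated (-1.08, SE 0.13, limma adjusted p = 0.0012). The dal80Δ call was lost without the second wild-type proline library or without either dal80Δ library (values of -1.15 to -1.01 over all 6 fits, highest limma adjusted p = 0.020).

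PEX18, the other co-receptor gene, had 0 and 9.83 scaled reads in glutamine, 22.6 and 13.2 in proline-grown wild type and 31.4 and 29.2 in dal80Δ. In every library PEX18 had a lower density than PEX21. Its log2 fold change of 2.48 in proline (limma adjusted p = 0.054) rests on few reads and depends on the pseudocount, and it was 0.76 without the first glutamine library and 4.19, which was called, without the second. PEX5 had 302 and 281 scaled reads in glutamine, 725 and 713 in proline-grown wild type and 545 and 553 in dal80Δ, again with dal80Δ in between. It was higher in proline (1.30, SE 0.11, limma adjusted p = 7.8e-05) and had a log2 change of -0.39 in dal80Δ (limma adjusted p = 0.037). PEX7 had overlapping groups in both comparisons (0.08 and -0.01).

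The docking proteins receive loaded receptors at the membrane. PEX14, their core, had 112 and 108 scaled reads in glutamine, 270 and 346 in proline-grown wild type and 195 and 186 in dal80Δ. It was higher in proline (1.47, SE 0.16, limma adjusted p = 0.00017) and had a log2 change of -0.68 in dal80Δ (limma adjusted p = 0.016). PEX8, PEX13 and PEX17, which work with it, had log2 fold changes between -0.01 and 0.40 in proline and between -0.27 and 0.17 in dal80Δ, with no call.

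PEX2 and PEX10 encode subunits of the ubiquitin ligase that marks receptors for recycling, and PEX2 was called. It had 1155 and 1373 scaled reads in glutamine, 886 and 923 in proline-grown wild type and 325 and 448 in dal80Δ. Its dal80Δ libraries were the lowest of the 6, and its wild-type groups did not overlap either. PEX2 was Dal80-activated (-1.24, SE 0.17, limma adjusted p = 0.0022) and had a log2 change of -0.48 in proline (limma adjusted p = 0.042), which was 0.44 with libraries scaled by their totals of ORF reads. The dal80Δ call was lost without either wild-type proline library or without the first dal80Δ library (values of -1.47 to -1.01 over all 6 fits, highest limma adjusted p = 0.020). PEX10 had log2 fold changes of 0.07 in proline and 0.09 in dal80Δ. The density ratio of PEX2 to PEX10 was 7.51 and 7.85 in glutamine, 5.35 and 5.17 in proline-grown wild type and 1.83 and 2.37 in dal80Δ. PEX2 has an annotated 5′ end of 390 bases, among the longer of the 40, and a GATAAG match lies within it.

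PEX6, PEX15, PEX4 and PEX22 act in receptor export, and none was called in either comparison. PEX6 encodes an ATPase that pulls receptors out of the membrane, PEX15 its anchor, and PEX4 and PEX22 the ubiquitin-conjugating enzyme and its anchor. The largest log2 fold changes were those of the anchors in proline, 0.88 for PEX15 (limma adjusted p = 0.00057) and 0.83 for PEX22 (limma adjusted p = 0.014). PEX15 was called higher with edgeR, and both were with libraries scaled by their totals of ORF reads. Leaving out 1 library at a time gave 0.61 to 1.05 for PEX22. In dal80Δ the 4 genes ranged from -0.31 to 0.12. PEX3 and PEX19, which insert membrane proteins, had log2 fold changes of 0.17 and 0.33 in proline and of -0.29 and 0.42 in dal80Δ, with no call.

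Genes that set peroxisome number and size moved apart from each other. PEX11, which encodes the membrane protein that drives proliferation and was the densest of the 40 genes, had 1733 and 1681 scaled reads in glutamine, 785 and 955 in proline-grown wild type and 1579 and 2422 in dal80Δ. Proline-grown wild type was thus lowest, and the dal80Δ libraries lay on either side of the glutamine libraries. PEX11 was higher in dal80Δ (1.17, SE 0.21, limma adjusted p = 0.0057), with a log2 change of -0.98 in proline that fell short of the fold threshold (limma adjusted p = 0.0042) but was called, just past it, without the second glutamine library, and was -0.06 with libraries scaled by their totals of ORF reads. The dal80Δ call was lost without either wild-type proline library or without the second dal80Δ library, with values of 0.87 to 1.48 over all 6 fits and a highest limma adjusted p of 0.051, and it was also lost under the scaling by totals and without the filter.

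PEX27 and PEX25 are members of the PEX11 family. PEX27 had 92 and 76.7 scaled reads in glutamine, 250 and 223 in proline-grown wild type and 119 and 101 in dal80Δ, so that its order of groups ran opposite to that of PEX11 within proline. It was NCR-sensitive (1.48, SE 0.17, limma adjusted p = 0.00022) and Dal80-activated (-1.10, SE 0.17, limma adjusted p = 0.0032). The latter call was lost without any 1 of the 4 proline libraries (values of -1.21 to -0.98 over all 6 fits, highest limma adjusted p = 0.037). PEX25 had log2 fold changes of 0.0014 in proline and 0.29 in dal80Δ. PEX34, which encodes an interactor of this family, had 69 and 63.9, then 256 and 223, and 180 and 153 scaled reads. It was higher in proline (1.83, SE 0.16, limma adjusted p = 7.2e-05), with -0.52 in dal80Δ (limma adjusted p = 0.041).

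PEX28 to PEX32 encode membrane proteins that restrain number or size, and PEX31 was the sole revNCR-sensitive member. PEX31 had 559 and 597 scaled reads in glutamine, 184 and 204 in proline-grown wild type and 209 and 195 in dal80Δ. Both proline groups overlapped and lay far below the glutamine libraries. It fell in proline by 1.57 on the log2 scale (SE 0.13, limma adjusted p = 6.1e-05), a value of -0.65 and no call with libraries scaled by their totals of ORF reads, and it had 0.06 in dal80Δ. Its paralog PEX30 had a log2 change of -0.89 in proline (limma adjusted p = 0.0028), called lower without the first glutamine or the first wild-type proline library and 0.03 with the scaling by totals. PEX28 had 0.90 in proline (limma adjusted p = 0.0013), called higher with edgeR, TMM scaling and the scaling by totals. PEX29 had -0.77 in dal80Δ (limma adjusted p = 0.0039), called lower with the scaling by totals. PEX32 had -0.33 in proline and -0.42 in dal80Δ, with no call.

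The members that held a match to the oleate response element were described apart. Since 10 of the 15 are oxidation genes, this split largely repeats that by class. Of these 15 genes 7 were higher in proline and none lower, with a median log2 fold change of 1.15. Of the other 25, 4 were higher and 1 lower, with a median of 0.12, beside 13.0% higher and 15.6% lower of all tested ORFs. The 4 biogenesis genes with a match had 1.30 (PEX5), -0.01 (PEX13), -0.17 (PEX6) and -0.98 (PEX11) in proline. In dal80Δ the 15 genes had a median of 0.0011, with 2 higher (FAA2 and PEX11) and 1 lower (DCI1), and the other 25 had a median of -0.16, with none higher and 3 lower, beside 3.60% and 4.43% of all tested ORFs. Their spread in dal80Δ ran from 1.37 (SPS19) to -1.004 (DCI1). Among oxidation genes, POX1, SPS19, FAA2, IDP3, ECI1 and PXA1 had values above 0 in dal80Δ, and CTA1, PXA2, DCI1, FOX2 and POT1 had values below 0.

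Other genes of peroxisomal pathways were counted from fixed lists of 3 to 14 genes, beside which 13.0% of all tested ORFs were higher and 15.6% lower in proline, and 3.60% and 4.43% in dal80Δ. Of 14 genes for further peroxisomal enzymes and transporters, 4 were higher in proline and 1 lower. MLS1, the malate synthase of the glyoxylate cycle (log2 fold change 4.03, limma adjusted p = 8.7e-05), CIT2, the peroxisomal citrate synthase (2.30, limma adjusted p = 1.7e-05), and GTO1, a glutathione transferase (1.97, limma adjusted p = 0.00021), rose most. The MLS1 value rests on few reads in glutamine (13 and 9.83 scaled reads, against 210 and 191 in proline-grown wild type) and ran from 3.43 to 4.95 over the alternatives. STR3 followed (mean density of 0.849 tag/nt in glutamine and 2.37 tag/nt in proline, limma adjusted p = 0.00042). FAT1, a fatty acid transporter gene, fell by 1.59 (limma adjusted p = 9.7e-05), which was -0.67 and no call with libraries scaled by totals. In dal80Δ, CIT2 was higher (1.66, limma adjusted p = 0.00015), and STR3, a cystathionine β-lyase gene, was lower (-2.20, limma adjusted p = 0.00024), as was the aspartate aminotransferase gene AAT2 (-1.27, limma adjusted p = 0.0013). The AAT2 call was lost without either wild-type proline library or without the first dal80Δ library (values of -1.42 to -1.13 over all 6 fits, highest limma adjusted p = 0.020).

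Acetyl units made in peroxisomes leave as citrate or as acetylcarnitine, and of 5 carnitine genes 2 were higher in proline. YAT2, a carnitine acetyltransferase gene, rose by 3.02 (limma adjusted p = 5.2e-06) and fell in dal80Δ by 1.56 (limma adjusted p = 0.00015). CAT2, which encodes the peroxisomal and mitochondrial form, rose by 1.40 (limma adjusted p = 0.00028) and had -0.75 in dal80Δ (limma adjusted p = 0.014).

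Of 4 further regulators of the pathway, OAF3 and MIG1 were higher in proline. OAF3, which encodes a zinc cluster repressor of oleate-responsive genes, had log2 fold changes of 1.39 in proline (limma adjusted p = 0.00011) and -0.70 in dal80Δ (limma adjusted p = 0.0073). MIG1, the gene of a glucose repressor, had 1.47 in proline (limma adjusted p = 0.00032) and 1.06 in dal80Δ (limma adjusted p = 0.0049), and the latter call was lost without the first wild-type proline library or either dal80Δ library (values of 0.84 to 1.27 over all 6 fits, highest limma adjusted p = 0.051), with edgeR, without the filter, with the scaling by totals and with the replicate block. ADR1, which encodes an activator of peroxisomal genes, had -0.39 and 0.75 (limma adjusted p = 0.12 and 0.027), and the kinase gene SNF1 had 0.07 and -0.13 (limma adjusted p = 0.61 and 0.43).

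In dal80Δ, none of 8 tested genes for the division, inheritance and turnover of peroxisomes was called as deposited, and only CAF4, as lower, with libraries scaled by totals. CAF4 lies close to DAL80 in the genome, and the part of the dal80 replacement in its level was not tested. In proline, CAF4 (1.18, limma adjusted p = 0.0013) was higher and VPS1, a dynamin-like GTPase gene (-1.28, limma adjusted p = 9.6e-05), was lower. The call of CAF4 was lost without the second glutamine or either wild-type proline library (values of 0.98 to 1.38 over all 6 fits, highest limma adjusted p = 0.011), and that of VPS1 with libraries scaled by totals (-0.36). None of the 3 acyl-CoA synthetase genes outside the peroxisome matrix, FAA1, FAA3 and FAA4, was called in either comparison, with log2 fold changes of -0.64 to -0.25 in proline and of 0.43 to 0.64 in dal80Δ.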

How the data were processed

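The authors depleted rRNA from total RNA, made strand-specific libraries, aligned the reads with TopHat to build R64 and kept uniquely mapped reads. In the deposited table the first glutamine library holds read counts, and the other 5 libraries hold signal, reads multiplied by 1 factor per library (0.551 to 0.983), with densities as the same signal per nucleotide. All values were whole reads (100%, within a relative tolerance of 1e-06) after division by the factor. The 6 columns of authors' means were not used. The paper describes densities normalized on the total of uniquely mapped ORF reads. The deposited totals on ORFs were not equal between libraries. They were 1.65e+07 and 1.68e+07 scaled reads in glutamine, 8.60e+06 and 9.01e+06 in proline-grown wild type and 1.01e+07 and 1.10e+07 in dal80Δ. Scaling by totals of ORF reads, the form the paper describes, is given as an alternative.

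Depth was 12304015 to 19968312 reads on ORFs, and counting error weighs most on genes with few reads. Plasmid ORFs were excluded. Values of 2 of the 40 ORFs are not reported here. Log2(scaled reads + 1) of the 5645 ORFs kept by filterByExpr was fitted with limma 3.58.1 (R 4.3.3), with a trend, a term per group and all 6 libraries, which left 3 residual and 4.54 prior degrees of freedom. The cultures are biological replicates by their labels. Genes were called when the p adjusted by Benjamini-Hochberg was 0.01 or less and the change 2-fold or larger. The fit was tested on simulated data.

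Alternatives were edgeR 4.0.16 and DESeq2 1.42.0 on the recovered reads, TMM factors, totals of ORF reads, a pseudocount of 8, no filter, transcripts in place of ORFs, the replicate number as a block, only the groups compared, and leaving out each library. Motifs were searched in the RefSeq copy of R64, in which all 40 ORFs have the same start, end and symbol. The oleate response element was first searched with a spacer of 7 to 10 bases, by mistake, and that gave 6 of 40 members, 1 of 11 oxidation genes and 66 of 5770 windows (1.14%). The spacer was then set to the known 9 to 12 bases after this result had been seen.

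The members and lists were chosen with earlier results of these data known. Per-library values are given for POX1, FOX2, POT1, CTA1, OAF1, PIP2, all called members and the 2 densest of each class, and for PXA1, SPS19 and PEX18, added after their values were seen. For each related list up to 3 of the largest called genes are named, and the further regulators in full; FAA1, FAA3 and FAA4 were named because the list is short, and FAT1 and STR3 in proline, outside that rule, after their values were seen.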

Additional observations from a re-analysis of the deposited data

How the results depend on the processing

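With libraries scaled by their totals of ORF reads, which moved the median log2 fold change of all ORFs from 0.04 to 0.96 in proline and from 0.05 to -0.21 in dal80Δ, 15 biogenesis and 8 oxidation genes were higher and 0 biogenesis genes lower in proline, and in dal80Δ 0 biogenesis and 0 oxidation genes were higher and 3 oxidation genes lower. Members gained 17 calls under this scaling and lost 3, and those gained included PXA2, CTA1, PIP2 and PEX29 as lower in dal80Δ. Over all ORFs this scaling gave 2661 higher and 189 lower in proline and 138 and 440 in dal80Δ, against 203 and 250 as deposited. TMM factors gave 912 and 756, against 733 and 878 as deposited. Without the filter 0 biogenesis and 0 oxidation genes were higher in dal80Δ and 0 oxidation genes lower, with 150 and 218 over all ORFs. DESeq2 (225 and 280 over all ORFs) gave 3 oxidation genes higher in dal80Δ, as did the fit of only the groups compared (235 and 284). In dal80Δ edgeR (191 and 279) gave 2 oxidation genes lower, and a pseudocount of 8 (201 and 246) gave 0 lower. All other counts of the 8 class results under these alternatives stayed within 1.5 times the value reported, and no called fold change of a member or a related gene turned its sign.

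Leaving out 1 library at a time gave 5 to 8 biogenesis and 5 to 7 oxidation genes higher in proline and 1 to 2 and 0 to 1 lower. In dal80Δ it gave 0 to 1 and 0 to 3 higher and 0 to 3 and 0 to 1 lower, with 75 to 237 higher and 126 to 284 lower over all ORFs. The fewest over all ORFs came without the first dal80Δ library, followed by the second (91 and 151) and the first wild-type proline library (104 and 159). Of the calls of members in proline only that of PEX31 was lost under any alternative, whereas all 6 in dal80Δ were lost without some libraries. With 2 libraries per group, a gene near either threshold can gain or lose its call from 1 culture.

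Labels do not say that replicate numbers pair cultures across groups, and deviations of equal numbers had correlations of -0.24, 0.03 and 0.18 across ORFs. With the replicate block 5 biogenesis genes were higher and 1 lower in proline, and 5 oxidation genes higher. The counts of members in dal80Δ were also those reported, while over all ORFs 706 and 870 were called in proline and 167 and 230 in dal80Δ.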

Other observations

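The glutamine cultures differed in oxidation genes. Of 11 oxidation genes 9 had more scaled reads in the second glutamine library than in the first, with a median log2 difference of 0.34, against 14 of 27 biogenesis genes (median 0.09) and 45.8% of all tested ORFs (median -0.02). POT1 (33.4 against 3), POX1 (44.2 against 19) and SPS19 (155 against 70) differed most. In dal80Δ 8 of the 11 were higher in the second library (median 0.25), against 51.9% of all tested ORFs. In proline-grown wild type 6 of the 11 were (median 0.03), against 51.1%. No test was run on this pattern, which was noticed in these data.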
